A study of Mus musculus with 2 samples.

Results

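The insulin-like growth factor (IGF) system was followed through 10 genes: the ligands Igf1 and Igf2, the receptors Igf1r and Igf2r, and the binding proteins Igfbp2, Igfbp3, Igfbp4, Igfbp5, Igfbp6 and Igfbp7. Their symbols were looked up in the gene list shared by both count matrices, in which all 10 were found among 34285 genes. The files give Igf1 as ENSMUSG00000020053, Igfbp5 as ENSMUSG00000026185, Igfbp2 as ENSMUSG00000039323 and Igfbp6 as ENSMUSG00000023046. The cells came from mandibular first molars and the tissue around them, taken from C57BL/6J mice at PN15.5 (PN, postnatal day). The Lipo-Clo library was from mice injected with clodronate liposomes, which kill phagocytes such as macrophages, at 40 μg per g, 4 times at intervals of 3 days from PN3.5. The Lipo-PBS library was from mice given vehicle liposomes on the same days. Each condition was 1 library, the number of mice behind a library was not given in the sources used here, and both libraries carry batch number 1 in the labels. There was thus no replicate, and no p-value is given anywhere. The 95% intervals below are exact and cover counting error only.

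Igf1 and Igf2 are secreted growth factors that act through the receptor tyrosine kinase Igf1r and, below it, the PI3K and AKT kinases. Igf2r (the mannose 6-phosphate receptor) carries Igf2 to the lysosome and lowers its supply. The binding proteins hold the ligands in plasma and matrix, can block or prolong their action, and release them when proteases cut them. In teeth and bone, IGF signals are known for promoting proliferation and matrix formation by mesenchymal cells.

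After filtering, 8254 Lipo-Clo and 8261 Lipo-PBS cells remained, with 26852423 and 25831678 unique molecular identifiers (UMIs, each 1 captured RNA molecule) and medians of 2567 and 2678 UMIs per cell. Mitochondrial genes took 0.370% of UMIs in Lipo-Clo and 1.73% in Lipo-PBS, and 23 of the barcodes used occurred in both libraries. Cells were clustered without the IGF genes and named by markers, so each name below stands for cells like that type. The 27 clusters gave 11 named classes and 3 unnamed clusters. An unnamed cluster led by Acta2, with markers of several lineages, came almost wholly from Lipo-PBS, with 615 cells against 23. The library labelled Lipo-Clo still held 126 macrophages by markers, against 174 in Lipo-PBS. Another unnamed cluster, led by Cd74 and Lyz2, shared markers of macrophages, monocytes or dendritic cells and osteoclasts. It had 383 cells from Lipo-Clo and 230 from Lipo-PBS and is not in the macrophage class. The dental mesenchyme, with 4119 and 3929 cells and median depths of 2773 and 2927 UMIs, was split into 10 states. Levels are given as CPM, the UMIs of a gene per 1000000 UMIs of the same cells, and a difference between libraries is the log2 ratio of Lipo-Clo to Lipo-PBS. Levels of different genes were not compared with each other.

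The ligand Igf1 was a mesenchymal transcript in both libraries. The dental mesenchyme held 81.9% of all Igf1 UMIs in Lipo-Clo and 75.2% in Lipo-PBS. The unnamed clusters, which are part of the total, held 1.88% in Lipo-Clo and 8.32% in Lipo-PBS. The mesenchymal level was 843 CPM (interval 828 to 859) in Lipo-Clo and 802 (787 to 818) in Lipo-PBS, the highest of the 11 classes in both. The cycling class followed at 638 and 572, and the macrophages at 320 and 397. Erythroid cells, which are not known to make IGF proteins and serve here as a measure of RNA free in the suspension, stood at 143 and 124, with median depths of 3781 and 3613 UMIs per cell. Epithelium, glia, lymphocytes and neutrophils lay between 126 and 203 as class averages. Within the epithelium, the cluster led by Cxcl14 stood apart in Lipo-Clo, at 646 (527 to 784) in 59 cells, against 122 (81.5 to 175) in the 74 such cells of Lipo-PBS. Macrophages had a higher Igf1 CPM than the erythroid reference in both libraries, with intervals of 258 to 391 and 342 to 458. CPM also depends on depth, as a given number of free UMIs weighs less in deeper cells. In Lipo-Clo 126 macrophages had 94 Igf1 UMIs and 379 erythroid cells 244, which is close per cell. In Lipo-PBS 174 macrophages had 188 and 200 erythroid cells 110. Whether the Lipo-Clo macrophages exceeded free RNA was not tested.

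The macrophage class held few of all Igf1 transcripts captured. In Lipo-Clo it held 94 of 13772 Igf1 UMIs, or 0.683% (Clopper-Pearson 0.552 to 0.835%), and in Lipo-PBS 188 of 13700, or 1.37% (1.18 to 1.58%). These shares move with the number of macrophages recovered as well as with the level per cell. Counting every cell with at least 3 UMIs over the complement genes C1qa, C1qb and C1qc gave 0.857% and 3.31%, and keeping the presumed doublets gave 1.27% and 2.01%. The unnamed cluster led by Cd74, which also had macrophage markers, is outside the class. It held 173 Igf1 UMIs in Lipo-Clo and 223 in Lipo-PBS, or 70.2 and 261 CPM, so the share of all macrophage-like cells may be larger.

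**Figure D1:**
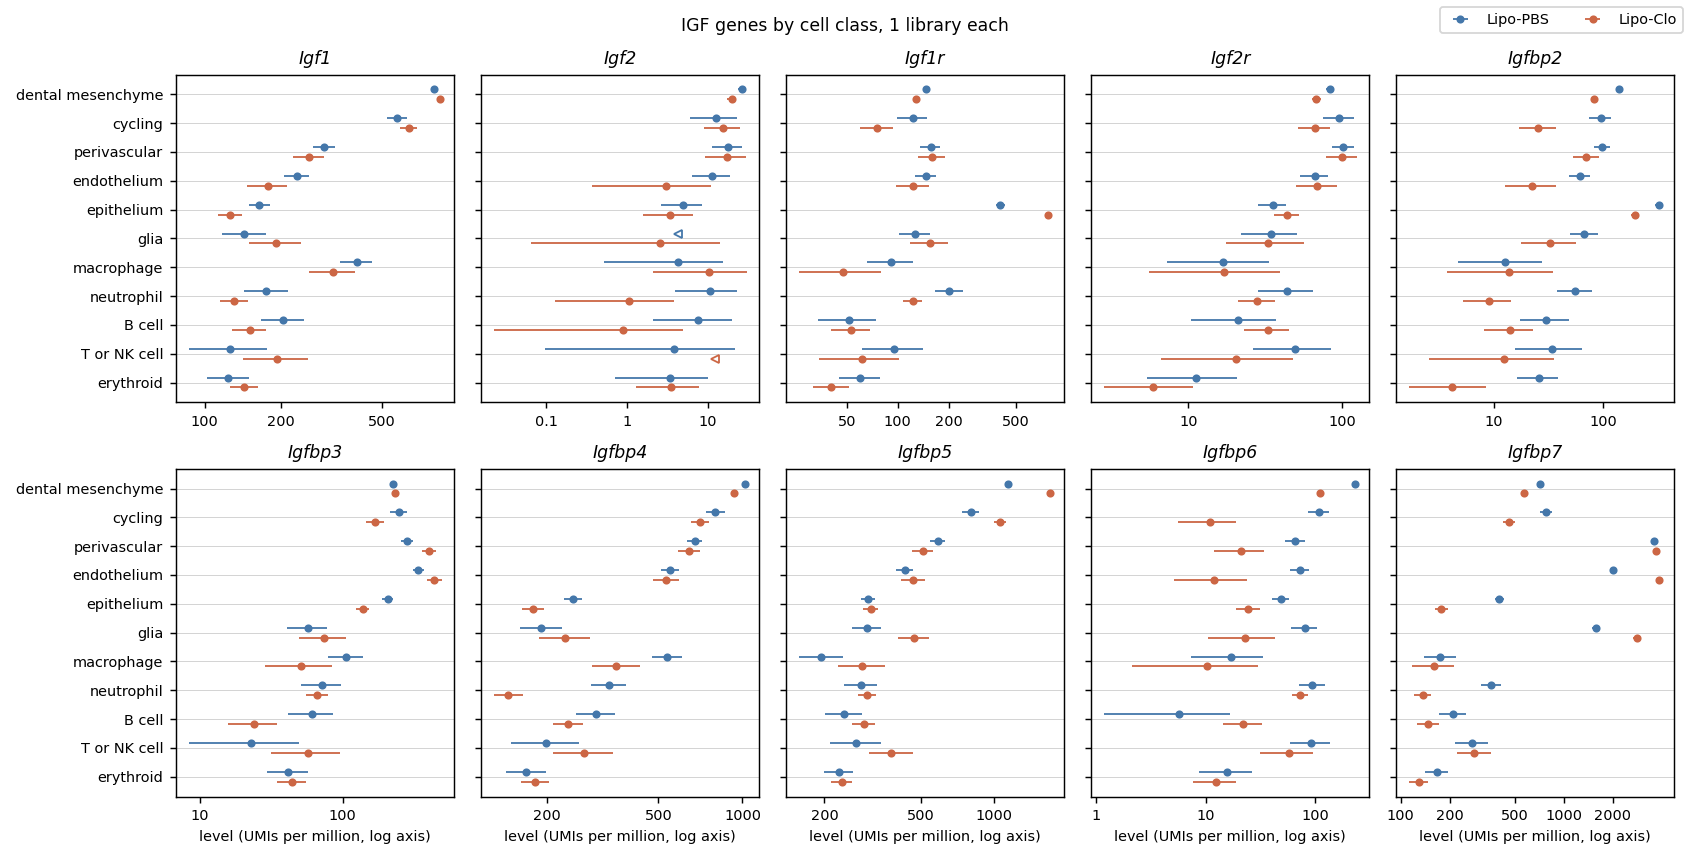
Level of each IGF gene by cell class in Lipo-PBS (blue) and Lipo-Clo (orange), in CPM on log axes that differ between panels, with 95% counting intervals. Open triangles mark classes with 0 UMIs, drawn at the level of 3 UMIs. Igf1, Igfbp4, Igfbp5 and Igfbp6 are highest in dental mesenchyme, Igf1r and Igfbp2 in epithelium, and Igfbp7 in endothelium and perivascular cells.

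Within the mesenchyme, Igf1 ranged widely. It was highest in the dental follicle-like state led by Dio2, at 1750 (Lipo-Clo) and 1585 (Lipo-PBS) CPM, and in the fibroblast-like state led by Mfap5, at 1741 and 1518. These levels could not be told apart within their counting intervals in either library. Odontoblast-like cells, which lay down dentin, were the lowest, at 65.5 and 87.4, under the erythroid reference. Papilla or pulp-like and osteoblast or cementoblast-like states were also low, between 103 and 228. The periodontal ligament-like state led by Crispld2 differed most between the libraries. It had 2486 Igf1 UMIs in 728 Lipo-Clo cells and 752 in 405 Lipo-PBS cells, or 882 against 430 CPM, a log2 ratio of 1.04. With every cell thinned to 1000 UMIs, Igf1 was seen in 50.7% of 696 cells and 32.7% of 394 cells of that state, against 7.80% and 7.58% of erythroid cells. The other periodontal ligament-like state, led by Edil3, was level, at 712 and 729. Over the whole mesenchyme the log2 ratio of Igf1 was 0.07 (0.03 to 0.11), and it turned to -0.02 as a mean over cells, so that no direction is given.

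Igf2, the main fetal IGF, was sparse at this age. The mesenchyme had 262 UMIs in Lipo-Clo and 337 in Lipo-PBS, or 19.6 and 26.2 CPM, and 5.68% and 7.38% of its cells had any. Its log2 ratio was -0.42 (-0.66 to -0.18). The unnamed mesenchymal state led by Pcp4, Mmp13 and Sfrp2 had the highest level in both libraries, at 35.5 and 71.3, overlapping in Lipo-Clo with the dental follicle-like state at 33.9. Osteoblast or cementoblast-like cells had 4 UMIs in Lipo-Clo and 14 in Lipo-PBS. No other class exceeded the mesenchyme, and the perivascular class, at 17.0 and 17.4, overlapped it. Glia in Lipo-PBS and T or NK cells in Lipo-Clo had 0 UMIs, where 3 UMIs would have been 4.30 and 12.3 CPM.

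The signalling receptor Igf1r was highest in the epithelium, at 774 CPM in Lipo-Clo and 402 in Lipo-PBS, against 128 and 147 in the mesenchyme. The mesenchymal log2 ratio was -0.19 (-0.29 to -0.10), but 0.06 as a mean over cells. Of the epithelial Igf1r UMIs, 1902 of 2052 in Lipo-Clo and 765 of 1057 in Lipo-PBS were in the cluster led by the enamel genes Ambn, Amtn, Odam and Amelx, which mark ameloblasts. There the level was 1152 (1101 to 1205) and 848 (789 to 910), while the epithelial clusters led by Lgals7 and Cxcl14 lay between 138 and 213. The Ambn-led cluster made up 604 of 844 epithelial cells in Lipo-Clo and 340 of 792 in Lipo-PBS. The log2 ratio was 0.95 for the epithelium as a whole and 0.44 (0.32 to 0.57) within that cluster. In the Lgals7-led cluster it was -0.25 (-0.59 to 0.07).

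A high Igf1r level in mesenchyme was seen in the papilla or pulp-like state led by Ctnnd2, at 545 and 621, more than in any other state of either library. The same state had the most growth hormone receptor (Ghr), at 1705 and 1737, while its Igf1 was 103 and 174, near the erythroid reference. In the dental follicle-like state, where Igf1 was highest, Igf1r had 192 UMIs in Lipo-Clo and 259 in Lipo-PBS, or 93.0 and 191 CPM. The ratio there, -1.04, was the lowest for Igf1r among the states. Intervals lay below 0 in 4 of 10 states and above 0 in none. In neutrophils Igf1r stood at 123 and 201, against 40.5 and 59.8 in erythroid cells.

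Igf2r was spread more evenly. Perivascular cells (99.5 and 102), mesenchyme (68.0 and 83.7) and endothelium (69.0 and 66.2) carried the most, together with cycling cells, and erythroid cells had 5.87 and 11.3. Within the mesenchyme it was highest in the fibroblast-like state, at 116 and 132. The mesenchymal log2 ratio was -0.30 (-0.43 to -0.17). Of the 10 states, the dental follicle-like one, at -0.62, was the only one with an interval below 0 for Igf2r, and so the only one in which both receptors were lower in Lipo-Clo beyond counting error.

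**Figure D2:**
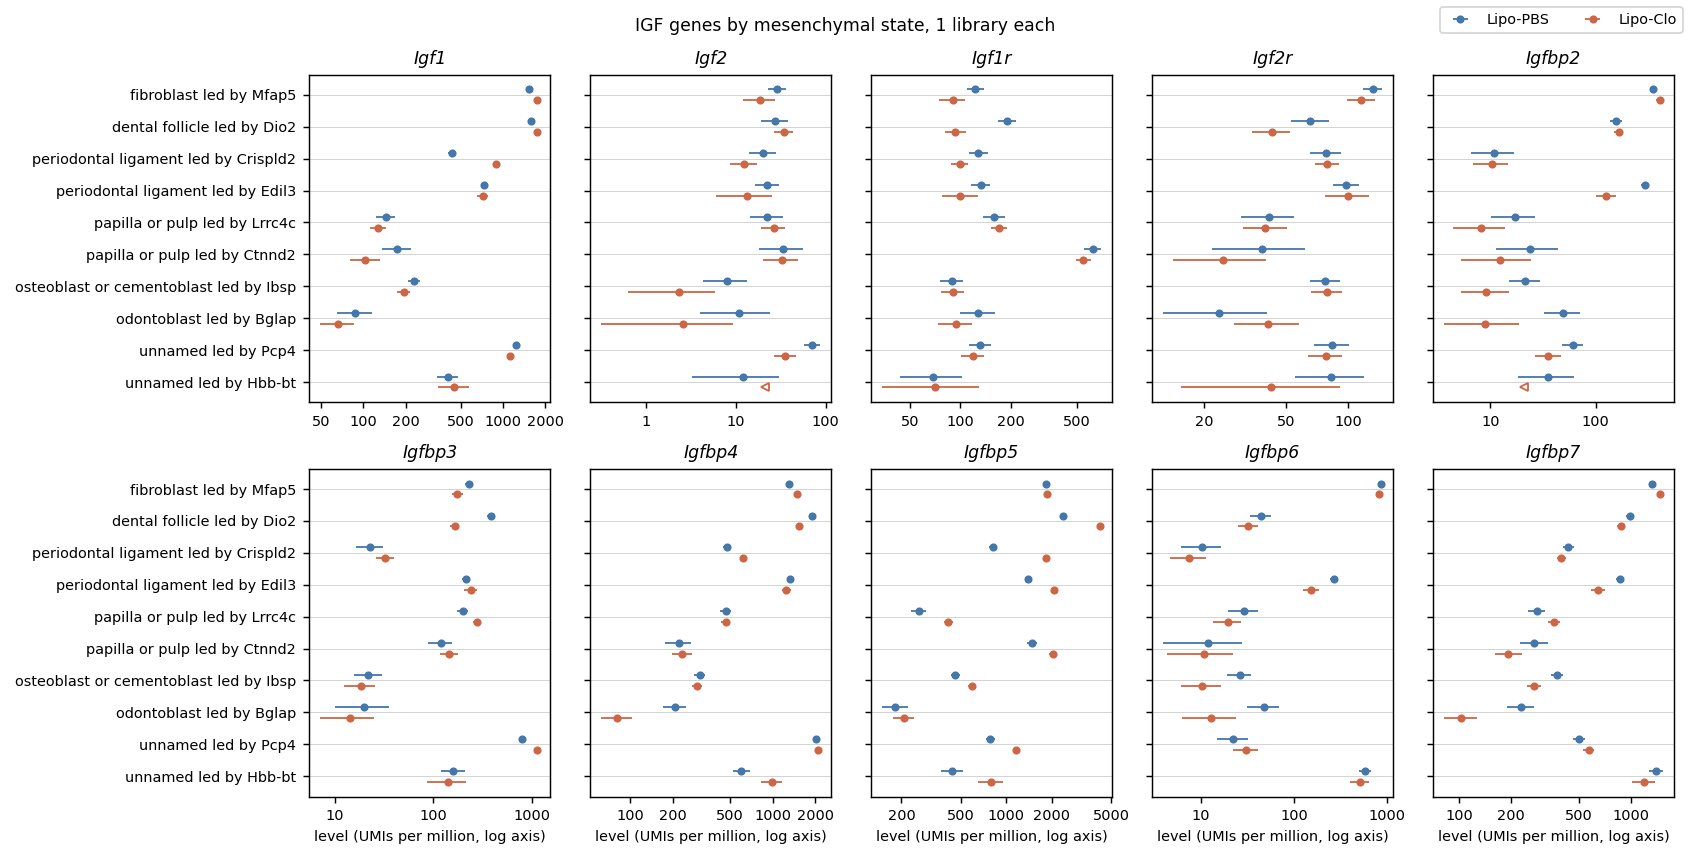
Level of each IGF gene by mesenchymal state in Lipo-PBS (blue) and Lipo-Clo (orange), in CPM on log axes that differ between panels, with 95% counting intervals. Open triangles mark states with 0 UMIs, drawn at the level of 3 UMIs. Igfbp5 peaks in the dental follicle-like state, Igf1 in that and the fibroblast-like state, Igfbp2 and Igfbp6 in the fibroblast-like state, Igf1r in the papilla or pulp-like state led by Ctnnd2 and Igfbp3 in the state led by Pcp4.

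Among the binding proteins, Igfbp5, which binds matrix and bone mineral, was the member with the clearest higher level in Lipo-Clo mesenchyme. It had 22827 UMIs in Lipo-Clo and 14619 in Lipo-PBS, or 1705 and 1138 CPM, a log2 ratio of 0.58 (0.55 to 0.61). This was greater than the ratio of 99.2% of the genes in use, those seen in at least 10% of mesenchymal cells of either library. It lay just under the limit of 1.5-fold, which is 0.585 on the log2 scale, and just above it when DESeq2 size factors were used. The ratio was above 0 in all 10 states, and its interval in 8. It was largest in the periodontal ligament-like state led by Crispld2, at 1845 against 813 (1.18). The unnamed state led by Hbb-bt followed, with 112 and 147 UMIs, or 788 against 435 CPM (0.86, 0.49 to 1.22), and the dental follicle-like state, at 4211 against 2369 (0.83, 0.77 to 0.89), lay within its interval. In the fibroblast-like state the libraries stood level, at 1858 and 1824. Erythroid cells had 236 and 229. How far free RNA entered the Igfbp5 differences was not tested.

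Igfbp5 outside the mesenchyme did not move one way. Its log2 ratio was 0.40 in cycling cells, 0.56 in macrophages and 0.64 in glia, and -0.21 (-0.38 to -0.03) in perivascular cells. Macrophage levels, at 286 and 194, were close to the erythroid ones.

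Igfbp6, which prefers Igf2 as its ligand, was foremost a gene of the fibroblast-like state. That state had 809 CPM in Lipo-Clo and 854 in Lipo-PBS and held 74.6% and 69.5% of all mesenchymal Igfbp6 UMIs. The unnamed state led by haemoglobin genes (Hbb-bt) had 513 and 578, and the periodontal ligament-like state led by Edil3 had 153 and 266. All other states were between 7.45 and 47.3. Over the whole mesenchyme Igfbp6 had 1478 UMIs in Lipo-Clo and 2970 in Lipo-PBS, or 110 and 231 CPM, a log2 ratio of -1.07 (-1.16 to -0.98). In the fibroblast-like state alone the ratio was -0.08. That state numbered 552 Lipo-Clo cells against 915 from Lipo-PBS. With each state given the same weight in Lipo-Clo as in Lipo-PBS, the mean of its shares of cells, the mesenchymal ratio was -0.22.

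Igfbp2 followed a like course. It was highest in the epithelium, at 196 and 325, where the Lgals7-led cluster (529 and 501) and the Cxcl14-led cluster (345 and 348) stood level between libraries and the Ambn-led cluster was low (12.1 and 28.8). In the mesenchyme it had 1103 and 1807 UMIs, or 82.4 and 141 CPM, a log2 ratio of -0.77 (-0.88 to -0.66), and -0.17 with the same mixture of states. It was highest in the fibroblast-like state, at 405 and 348, slightly higher in Lipo-Clo (0.22). In the dental follicle-like state it was level, at 165 and 157. In the periodontal ligament-like state led by Edil3 it was lower in Lipo-Clo, with 86 UMIs against 550, or 126 and 294 CPM (-1.22).

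Lower Igfbp6 and Igfbp2 in Lipo-Clo was also seen in other classes. Endothelium had 12.0 Igfbp6 CPM in Lipo-Clo and 72.1 in Lipo-PBS, and cycling cells 10.9 and 108, against 12.3 and 15.8 in erythroid cells. For Igfbp2, erythroid cells themselves had 4.11 in Lipo-Clo and 26.0 in Lipo-PBS. The interval lay below 0 in 9 of 11 classes for Igfbp2 and in 6 for Igfbp6, with mesenchyme and epithelium among them for both. Within the epithelium, Igfbp2 was level in the Lgals7-led (0.08) and Cxcl14-led (-0.01) clusters. It was lower in the Ambn-led one (-1.25), which had 20 and 26 UMIs. B cells went the other way for Igfbp6, with 25 UMIs in Lipo-Clo and 3 in Lipo-PBS. How far free RNA entered these differences was not tested.

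Igfbp7, an IGFBP-related protein of vessel walls, was highest around vessels. Perivascular cells had 3664 in Lipo-Clo and 3588 in Lipo-PBS, with no difference beyond counting error. The vascular endothelial cluster led by Cdh5 had 4540 (4364 to 4721) and 3691 (3540 to 3847), a log2 ratio of 0.30. The cluster led by Ccl21a, Mmrn1 and Lyve1, genes of lymphatic endothelium, had 409 and 591. Of 419 endothelial cells in Lipo-Clo 31 were in that cluster, against 150 of 561 in Lipo-PBS, and the endothelium as a whole had 3843 and 1999. Glia had 2820 and 1578. Mesenchyme had 571 and 720, a log2 ratio of -0.33 (-0.38 to -0.29), and -0.05 with the same mixture of states. Epithelium as a whole was lower in Lipo-Clo, at 177 against 403. Its clusters did not all go that way. The Ambn-led cluster had 125 against 274 (-1.13) and the Lgals7-led cluster 240 against 522 (-1.12), while the Cxcl14-led cluster, with 62 and 36 UMIs, had 389 against 151 (1.36, 0.75 to 2.00).

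Igfbp3, the main carrier of IGFs in plasma, was highest in endothelium (437 and 338) and perivascular cells (399 and 282). In vascular endothelium alone the libraries stood close, at 487 and 516. In the mesenchyme 52.8% of its UMIs in Lipo-Clo and 34.8% in Lipo-PBS were in the unnamed state led by Pcp4, at 1146 and 800 CPM (0.52). In the dental follicle-like state it was lower in Lipo-Clo, with 343 UMIs against 520, or 166 and 384 CPM (-1.21). Over the whole mesenchyme Igfbp3 was at 233 and 226, a log2 ratio of 0.04 (-0.03 to 0.12). It was 0.11 with the same mixture of states and -0.41 without the unnamed states.

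Igfbp4, which blocks IGF action until the protease Pappa cuts it, was a broad mesenchymal gene, at 929 and 1017, a log2 ratio of -0.13 (-0.17 to -0.10) that turned to 0.04 with the same mixture of states. It was highest in the state led by Pcp4 (2093 and 2012) and in the dental follicle-like state (1535 and 1903). Odontoblast-like cells were the lowest, at 80.9 and 206. Macrophages had 354 and 538 CPM, and erythroid cells 181 and 168. In Lipo-Clo this was 104 UMIs in 126 macrophages and 308 in 379 erythroid cells, which is close per cell. In Lipo-PBS it was 255 in 174 macrophages and 149 in 200 erythroid cells. Whether the Lipo-Clo macrophages exceeded free RNA was not tested.

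**Figure D3:**
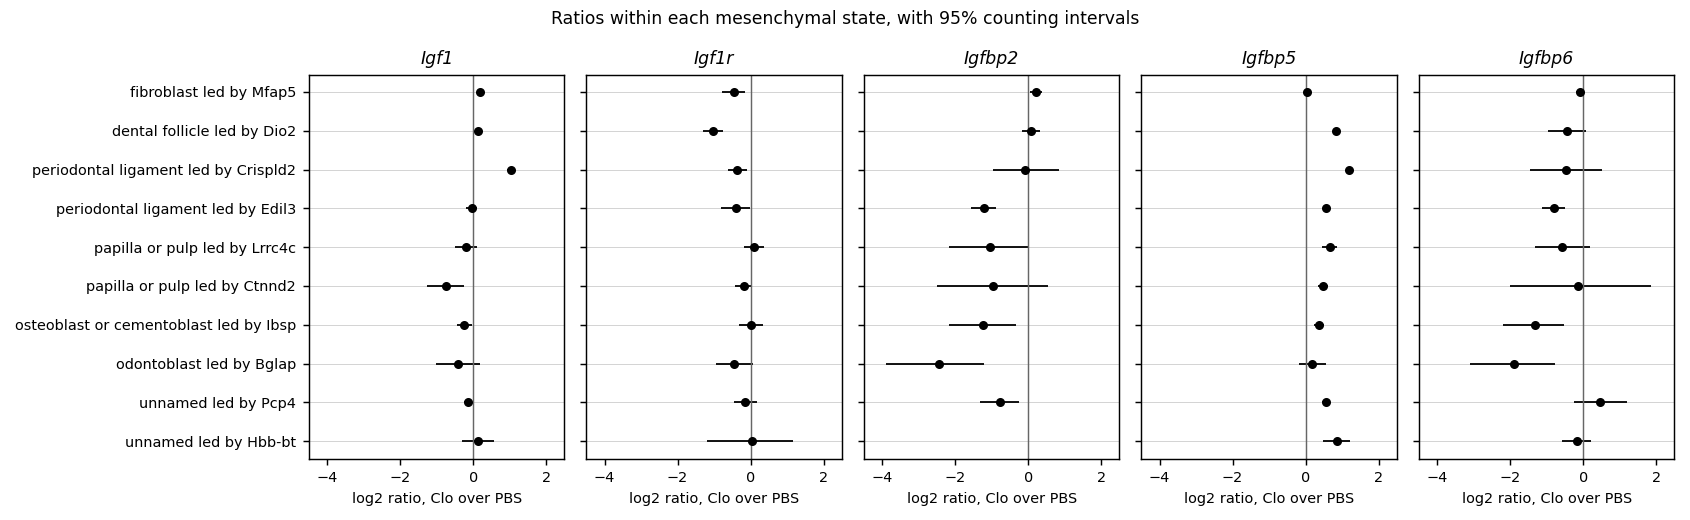
Log2 ratio of Lipo-Clo to Lipo-PBS within each mesenchymal state for 5 IGF genes, with 95% counting intervals. Igfbp2 is not drawn for the state led by Hbb-bt, where Lipo-Clo had 0 UMIs. Igfbp5 lies above 0 in all 10 states, Igf1 reaches 1.04 in the periodontal ligament-like state led by Crispld2, and Igfbp6 is at -0.08 in the fibroblast-like state that holds most of it.

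The same limit was applied to all genes in the mesenchyme. Of 4644 genes in use, 37 were at least 1.5-fold higher in Lipo-Clo (0.797%) and 223 at least 1.5-fold lower (4.80%), and the median log2 ratio was -0.00. As a mean over cells these counts were 52 and 162, and with cells thinned to 1000 UMIs 75 and 199. Of the 10 members 9 were in use, since Igf2 was seen in too few cells, and Igfbp2 entered through Lipo-PBS only. None was past the limit upward and 2, Igfbp6 and Igfbp2, were past it downward. The median of the 9 was -0.19. Without a replicate library, these ratios compare the libraries and not the treatments.

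**Figure D4:**
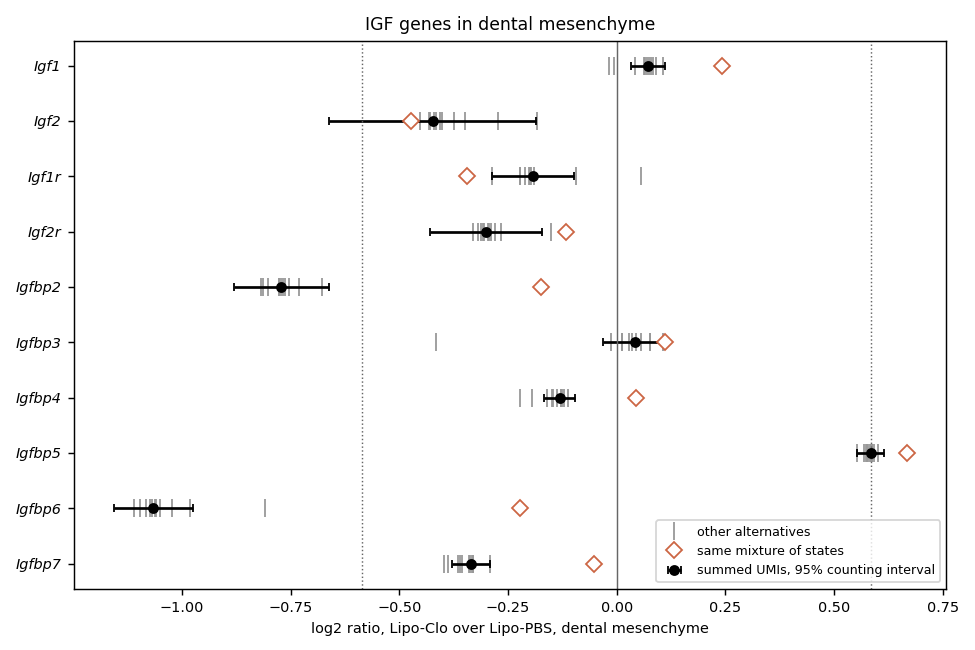
Log2 ratio of Lipo-Clo to Lipo-PBS in dental mesenchyme for each IGF gene from summed UMIs (black, 95% counting interval), with each state given the same weight in Lipo-Clo as in Lipo-PBS (orange diamonds) and under the other alternatives (grey ticks). Dotted lines mark 1.5-fold. Igfbp6 and Igfbp2 move from -1.07 and -0.77 to -0.22 and -0.17 with the same mixture, and Igfbp5 from 0.58 to 0.67.

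The genes around the members in the pathway were counted in the same way. Of 75 listed pathway genes in the files 45 were in use, with 0 past 1.5-fold upward and 1 downward. Over all genes in use the shares were 0.797% and 4.80%, and counts this small cannot be set apart from them. Of the 45, 14 ratios were above 0 and 31 below, with a median of -0.11. Some of those below were in use through Lipo-PBS only, a route that favours a ratio below 0. They were Rictor (9.47% of Lipo-Clo and 13.4% of Lipo-PBS cells), Sos1 (8.18% and 11.1%), Cited2 (9.74% and 11.9%) and Sesn1 (9.20% and 11.5%). Over all 4644 genes 2301 were above 0 and 2343 below, with a median of -0.00. Among 21 adaptors and kinases in use the median was -0.11. All 7 FOXO factors and targets in use, genes held back by AKT, had ratios below 0, as had 2343 of the 4644 genes in use. Cited2 and Sesn1 are among the 7, so the filter favoured that direction for them. The median of the 7 was -0.32, and Txnip, the gene of that list with the most UMIs over both libraries, was at -0.32 (109 and 136 CPM). Above Igf1, Ghr was level in the mesenchyme, at 288 and 301 (-0.06). The growth-suppressing noncoding RNA H19, a neighbour of Igf2 in an imprinted cluster, was at 148 and 182 (-0.30) and peaked in the fibroblast-like state (562 and 527). Meg3, of the imprinted growth network, was at 304 and 289 (0.07).

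Proteases that free IGFs did not all go one way between libraries. Of the 6 listed proteases and inhibitors in use, 1 had a ratio above 0 and 5 below. Pappa, which cuts Igfbp4, was too sparse to be in use. It was lower in Lipo-Clo beyond counting error, with 226 UMIs against 278 (-0.36). Htra1, which cuts Igfbp5 among other substrates, was at 390 and 446 (-0.19) and was highest in the dental follicle-like state, at 1188 and 1510. Pappa2, which cuts Igfbp3 and Igfbp5, was at 79.3 and 68.0 (0.22, 0.09 to 0.35). It was a gene of the periodontal ligament-like state led by Crispld2, at 275 and 258. The stanniocalcins Stc1 and Stc2, which inhibit Pappa and Pappa2, were too sparse to be in use and are named after their values were seen. Stc1 had 175 and 339 UMIs (-1.01, -1.28 to -0.75) and Stc2 129 and 318 (-1.36, -1.67 to -1.06). Stc1 was highest in the dental follicle-like state, at 65.4 and 187 CPM. Stc2 in the Crispld2-led periodontal ligament-like state was at 16.7 and 121.

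**Figure D5:**
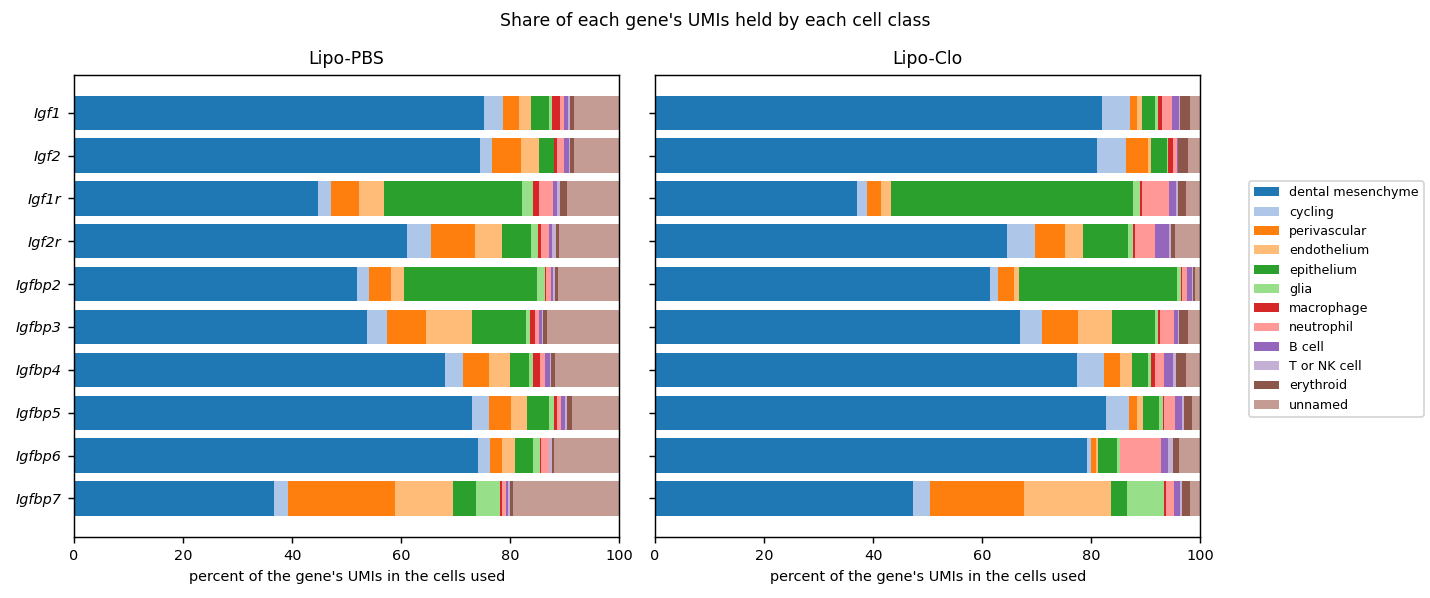
Percent of each IGF gene's UMIs held by each cell class, in Lipo-PBS (left) and Lipo-Clo (right). Dental mesenchyme holds 81.9% of Igf1 UMIs in Lipo-Clo and 75.2% in Lipo-PBS, epithelium holds 44.3% and 25.1% of Igf1r, and the shares depend on how many cells of each class were recovered.

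Across the 27 clusters of both libraries together, levels of Igf1 and Igfbp4 ran alike, with a Pearson r of 0.89 on the scale of log2(CPM + 10). Igf1 and Igfbp5 had 0.82 and Igfbp4 and Igfbp5 0.75. Igf1 and Igf1r did not run together (0.03). These are descriptions over clusters that share their libraries. Among 12242 genes, the genes most like Igf1 were Dpep1 (0.90) and Igfbp4, those most like Igfbp5 were Antxr1 (0.91) and Clmp (0.88), and those most like Igfbp4 were Col6a3 (0.89) and Igf1. Igfbp6 was most like Mfap5 (0.92) and AW551984 (0.88), Igfbp7 most like Atp8b1 (0.91) and Tm4sf1 (0.84), and Igfbp2 most like Aldh3a1 (0.86) and Fst (0.79). For Igfbp3 they were Igfbp4 (0.80) and Myof (0.80). For the receptors they were Erc1 (0.88) and Kidins220 (0.86) beside Igf1r, and Grb10 (0.84) and Olfml2b (0.83) beside Igf2r. Igf2 was most like Gaa (0.88) and Npas2 (0.86), at few UMIs.

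Igf1, Igfbp4 and Igfbp5 varied together over clusters. Igfbp6 ran with them less closely, with r of 0.43, 0.40 and 0.26, though its highest state was also high in Igf1. The 100 bases just before the start sites of these genes are shown, 5′ to 3′ along each gene. They are RefSeq promoter sequences of build GRCm38.p6, which is not the build named for the count files. Capitals mark the core promoter motif TATAAA.
Igf1, chr10:87861011-87861110, + strand: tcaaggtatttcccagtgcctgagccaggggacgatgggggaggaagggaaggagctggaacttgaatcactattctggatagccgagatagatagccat
Igfbp4, chr11:99041144-99041243, + strand: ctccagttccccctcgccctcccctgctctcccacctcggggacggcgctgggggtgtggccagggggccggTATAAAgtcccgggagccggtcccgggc
Igfbp5, chr1:72874866-72874965, − strand: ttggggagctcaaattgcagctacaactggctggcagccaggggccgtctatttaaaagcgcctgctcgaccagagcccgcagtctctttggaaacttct
Igfbp6, chr15:102144086-102144185, + strand: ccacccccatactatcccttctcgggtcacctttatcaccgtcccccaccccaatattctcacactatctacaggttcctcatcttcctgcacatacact
The stretches differed in base composition, with 75.0% G and C before Igfbp4 and 51.0 to 55.0% before the others. TATAAA, on either strand of the 250 bases before a start, was in 2 of 14 windows of the members (Igfbp4 and Igfbp6) and in 12.4% of 32851 promoters. GTAAACA, the core bound by FOXO factors, was in 0 of 14 and in 3.17% of all. A match or its lack describes these letters only.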

How the data were processed

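Each library was a 10x Genomics matrix of UMI counts that the authors deposited per gene and cell, unnormalized, in 9362 (Lipo-Clo) and 9653 (Lipo-PBS) barcodes. The file headers name Cell Ranger 8.0.0, the submitters' processing notes Cell Ranger 3.1.0, Seurat 3.1.1 and GRCm39. Strand handling was not given in the sources used here. How reads over the overlapping antisense genes Igf1os and Igf2os were assigned was not checked for Igf1 and Igf2. Barcodes under 200 genes or over 20% mitochondrial UMIs were dropped. The doublet caller (Scrublet) called 0 and 1 cells at its own threshold and had not worked, so the top-scoring 632 and 633 cells were removed. Counts scaled to 10000 per cell, 2000 variable genes without 85 IGF genes, 30 principal components and Leiden clustering (resolution 1, scanpy 1.11.5, leidenalg 0.10.2) gave the clusters, and resolution 0.6 the mesenchymal states. A class or state was named from at least 3 markers. UMIs were summed per library and group. Intervals are exact Poisson, Clopper-Pearson or conditional binomial (scipy 1.17.1). The ratio and its interval were run on simulated Poisson counts, the model the interval assumes. That run checks the calculation and not the ratios of these libraries. Alternatives used edgeR 4.0.16 and DESeq2 1.42.0 scaling only, with no test, as 1 library per condition allows none. The text names all 10 members, of each pathway list the genes past 1.5-fold or else the most abundant, and the 2 genes most like each member. Outside that rule, Pappa, Pappa2 and Insr were added by hand. Rictor, Sos1, Cited2 and Sesn1 are named for how they passed the filter. The members and lists were chosen with earlier results of these data known. No per-sample column was left out, and no coordinates of the count files were used. The pathway gene past the limit and the single clusters of glia are not reported here.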

Additional observations from a re-analysis of the deposited data

Results flagged for a closer look

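The members Igf1, Igfbp7, Igf1r and Igfbp5 differed between the libraries in opposite directions, beyond counting error, in the dental mesenchyme and in another class. With 1 library per condition, the difference between the classes was not tested. Igf1 had a log2 ratio of -0.38 in endothelium and -0.39 in epithelium against 0.07 in mesenchyme. Its levels were 177 and 231 CPM in endothelium and 126 and 164 in epithelium, against 143 and 124 in erythroid cells. By cluster, the epithelial ratios were -1.67 (Ambn-led), -0.00 (Lgals7-led) and 2.41 (Cxcl14-led, 1.80 to 3.06), and the vascular endothelial cluster led by Cdh5 had 0.27 (-0.17 to 0.70). No endothelial cluster had an Igf1 ratio beyond counting error. Igfbp7 had 0.94 in endothelium and 0.84 in glia against -0.33 in mesenchyme. The endothelial clusters went opposite ways for Igfbp7, at 0.30 (Cdh5-led) and -0.53 (Ccl21a-led), both beyond counting error. The Ccl21a-led cluster had 31 Lipo-Clo cells and 150 Lipo-PBS cells. With the same mixture of states the mesenchymal ratio of Igfbp7 was -0.05. Igf1r had 0.95 in epithelium against -0.19 in mesenchyme. By cluster, its epithelial ratios were 0.44 (Ambn-led), -0.25 (Lgals7-led, -0.59 to 0.07) and 0.11 (Cxcl14-led, -0.57 to 0.78). As a mean over cells the mesenchymal ratios of Igf1 and Igf1r changed sign, to -0.02 and 0.06. Ratios in the other classes were not computed that way, so whether the directions stay opposite on that measure was not tested. Igfbp5 had -0.21 in perivascular cells against 0.58 in mesenchyme.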

How the results depend on the processing

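Of 120 member ratios in the mesenchyme under 12 alternatives, 99 stayed within their counting interval, 17 moved beyond it and 4 with an interval clear of 0 changed sign. Igf1 was -0.0178 as a mean over cells and -0.0051 with thinned cells, Igf1r 0.0556 as a mean over cells, and Igfbp4 0.0446 with the same mixture of states. Igfbp3, whose interval held 0, also changed sign in 2 alternatives, and was -0.41 without the unnamed states. Igfbp5 kept its direction in 12 of 12 (0.55 to 0.67), as did Igfbp6 (-1.11 to -0.22) and Igfbp2 (-0.82 to -0.17). With the same mixture of states 0 members were past 1.5-fold downward and 1, Igfbp5, upward, as it was with DESeq2 size factors. At a looser limit of 5/4-fold 1 was past upward and 3 downward, and at 2-fold 1 downward. The members in use were 9, too few to set against the counts over all genes, given below.

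Of 4644 genes in use, those past the limit upward numbered 75 with thinned cells, 22 with the same mixture, 701 at 5/4-fold and 7 at 2-fold. They numbered 833 of the 15106 genes with at least 20 UMIs. Downward they numbered 145 with the same mixture, 801 at 5/4-fold, 43 at 2-fold and 1353 with all genes of at least 20 UMIs. Against 37 upward and 223 downward, the mean over cells gave 52 and 162, and thinning 75 and 199. Of 45 pathway genes in use, 2 were past 5/4-fold upward and 10 downward, and 0 were past 2-fold downward. Against 701 and 801 of 4644 genes at 5/4-fold, counts this small cannot be set apart. The median of all genes lay between -0.03 and 0.03 under every alternative. Macrophages held 1.27% of Igf1 UMIs in Lipo-Clo and 2.01% in Lipo-PBS with doublets kept, and 0.857% and 3.31% by C1q genes. The class with the highest level was the same for 17 to 20 of 20 pairs of member and library. The ratios checked in other classes were those already clear of 0 in endothelium, epithelium, perivascular cells, glia, macrophages or cycling cells. They were checked under other cell filters and clusterings only, not under other scalings, means over cells or thinning. Of 160 such ratios, 141 stayed within their interval, 19 moved beyond it and 0 changed sign. Ratios near 0 were left out, so the count of sign changes says little. The counts of members and the ratios in other classes were checked under alternatives chosen after seeing the data. The cause of these shifts was not tested. No paired analysis was possible because 1 library stood for each treatment, and for the same reason no library could be left out. Depth limits Igf2 most.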

Other observations

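Neutrophils and T or NK cells had Igfbp6 above the erythroid reference in both libraries, which no comparison above covers. Neutrophils had 73.1 CPM in Lipo-Clo and 94.5 in Lipo-PBS, from 139 and 54 UMIs, and T or NK cells 57.4 and 91.3, from 14 and 24 UMIs. Erythroid cells had 12.3 and 15.8. The insulin receptor Insr, which can pair with Igf1r in hybrid receptors, was highest in endothelium, at 425 and 229 CPM, against 22.7 and 31.3 in mesenchyme, and was chosen for mention after its values were seen. The unnamed cluster led by Acta2, mostly of Lipo-PBS cells, had 1865 CPM of Igfbp7 and 145 of Igfbp6 there.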
